A study of Mus musculus with 23 samples.

Results

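The CpG-poor autosomal windows are the 150 bp windows of chromosomes 1 to 19 that hold only 1 or 2 CpGs. They were chosen by the CpG number listed for each window (the coupling factor, CF) and by no measured signal. There were 15221 of them, 4463 with 1 CpG and 10758 with 2 CpGs, or 7.78% of the 195677 autosomal windows, out of 210191 windows in all. They were set beside the 124957 autosomal windows with 4 to 8 CpGs, which made up 63.9% of the autosomal windows.

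MBD-seq was used to assay DNA methylation in prefrontal cortex from 23 C57BL/6J (B6) and DBA/2J (D2) mice, to ask whether a model of Gulf War illness leaves strain-dependent marks on the methylome. The CORT + DFP mice drank corticosterone (20 mg%) for 7 days, were then injected with 4 mg per kg of diisopropyl fluorophosphate (DFP, an organophosphate that stands in for sarin), and drank corticosterone again every other week until they were killed. Control mice had no corticosterone and a saline injection. There were 5 B6 control mice (2 females and 3 males, all 145 days old), 6 B6 CORT + DFP mice (3 and 3, 145 to 226 days), 6 D2 control mice (3 and 3, 147 to 196 days) and 6 D2 CORT + DFP mice (3 and 3, 147 to 196 days). The first part of the sample names places the mice in 3 sets, and set 1 alone holds both strains. All 5 B6 control mice were in set 2, so among B6 mice the older animals, and those of set 1, had all been treated. The tissue is a mixture of cell types, and methylation of windows offers no expression marker against which the label could be checked.

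In MBD-seq, sheared DNA is captured with the methyl-CpG binding domain of MBD2, and the captured fragments are sequenced. The protein binds methylated CpGs, and a fragment with several of them is held better than a fragment with few, so signal depends on how many CpGs a fragment carries as well as on how often they are methylated. Most of the mouse genome is poor in CpGs because methylated cytosine tends to mutate to thymine, and clusters of unmethylated CpGs (CpG islands) mark many gene starts. A fragment longer than its window also carries CpGs of the window beside it.

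The sequences below show what such windows look like, with each CpG in capitals. They are on the plus strand of GRCm38, as read from exons of GENCODE M21 and promoter sequences. The first 3 come from the coding sequence of an exon of Sipa1l2 (a GTPase-activating protein of the Rap family) and were picked after their values were seen. The CpG-poor window was the one with the smallest adjusted p for strain among those of the gene that lie beside a richer window. The window at chr8:125491801-125491950 holds 2 CpGs and touches the window at chr8:125491951-125492100, which holds 7 CpGs. The window at chr8:125492251-125492400 also holds 2 CpGs, lies away from the 7, and has no value in the matrix.
Sipa1l2 CpG-poor window: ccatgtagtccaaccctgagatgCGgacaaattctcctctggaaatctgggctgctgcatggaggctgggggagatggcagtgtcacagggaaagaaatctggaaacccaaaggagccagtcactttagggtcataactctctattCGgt
Sipa1l2 richer window: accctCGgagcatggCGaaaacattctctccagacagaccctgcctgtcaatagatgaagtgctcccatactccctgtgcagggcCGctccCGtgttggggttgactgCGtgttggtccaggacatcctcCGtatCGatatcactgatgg
Sipa1l2 window with no value: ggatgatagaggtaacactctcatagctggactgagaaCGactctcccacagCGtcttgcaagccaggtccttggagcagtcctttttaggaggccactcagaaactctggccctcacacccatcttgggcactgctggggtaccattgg

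The next sequences belong to windows with some of the largest strain differences. The Snhg14 window (chr7:59771701-59771850, 1 CpG, within 1 kb of a transcript start) lies in a non-coding transcript of the Prader-Willi region and overlaps the small nucleolar RNA gene Gm22128. It touches a window with 4 CpGs (chr7:59771551-59771700). The Gm7822 window (chr13:65874301-65874450, 2 CpGs) lies in a processed pseudogene. The Msh3 window (chr13:92348251-92348400, 2 CpGs) lies in an annotated exon of a DNA mismatch repair gene, with no adjacent window in the matrix. Whether that exon is coding was not checked.
Snhg14 CpG-poor window: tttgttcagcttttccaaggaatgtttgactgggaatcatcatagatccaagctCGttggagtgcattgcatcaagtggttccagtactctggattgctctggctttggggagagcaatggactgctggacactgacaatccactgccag
Snhg14 richer window: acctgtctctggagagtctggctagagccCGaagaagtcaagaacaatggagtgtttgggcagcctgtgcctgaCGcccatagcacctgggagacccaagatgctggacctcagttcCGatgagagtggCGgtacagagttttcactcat
Gm7822 CpG-poor window: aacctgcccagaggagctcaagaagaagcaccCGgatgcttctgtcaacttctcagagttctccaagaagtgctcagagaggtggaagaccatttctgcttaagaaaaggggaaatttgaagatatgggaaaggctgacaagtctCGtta
Msh3 CpG-poor window: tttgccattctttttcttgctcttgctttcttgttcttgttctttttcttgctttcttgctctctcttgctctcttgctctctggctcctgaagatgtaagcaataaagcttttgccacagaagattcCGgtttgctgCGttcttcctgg

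The last pair is from Nrde2, named after a nematode factor of nuclear RNA interference. Its CpG-poor window was among those with the smallest p for treatment in B6. The CpG-poor window (chr12:100130701-100130850, within 1 kb of a transcript start) holds 2 CpGs and the adjacent window (chr12:100130851-100131000) holds 11.
Nrde2 CpG-poor window: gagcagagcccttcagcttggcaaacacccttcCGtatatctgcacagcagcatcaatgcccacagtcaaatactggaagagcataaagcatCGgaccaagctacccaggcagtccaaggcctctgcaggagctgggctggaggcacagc
Nrde2 richer window: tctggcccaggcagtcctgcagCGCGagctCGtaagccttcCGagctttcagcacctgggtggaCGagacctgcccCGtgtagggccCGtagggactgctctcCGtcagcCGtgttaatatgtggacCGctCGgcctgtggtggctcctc

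The windows of a library held from 9776537 to 18428398 reads. The values are log2 RPKM, and the whole reads behind them could be recovered. A B6 control female (replicate 1) had the fewest reads and stood apart from the other B6 control mice in several measures below. Nothing in the sample labels says that the mice of a group came from separate litters.

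CpG-poor windows carried slightly less signal than windows richer in CpGs. The median of their mean over the 23 mice was 4.25 on the log2 RPKM scale (37.7 reads per mouse), against 4.37 (40.7 reads) in windows with 4 to 8 CpGs. Windows with 1 CpG had a median of 4.20 and windows with 2 CpGs a median of 4.27. The medians went up to 4.77 at 12 CpGs. These steps were small beside the spread within a class, since the 10th and 90th percentiles of the CpG-poor windows were 3.83 and 4.72. Every one of these windows had more than 1 CPM in at least 2 libraries, because the authors kept no others, so that filter bounds the lower end of each class. The smallest second-highest read number of any window was 25.

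**Figure D1:**
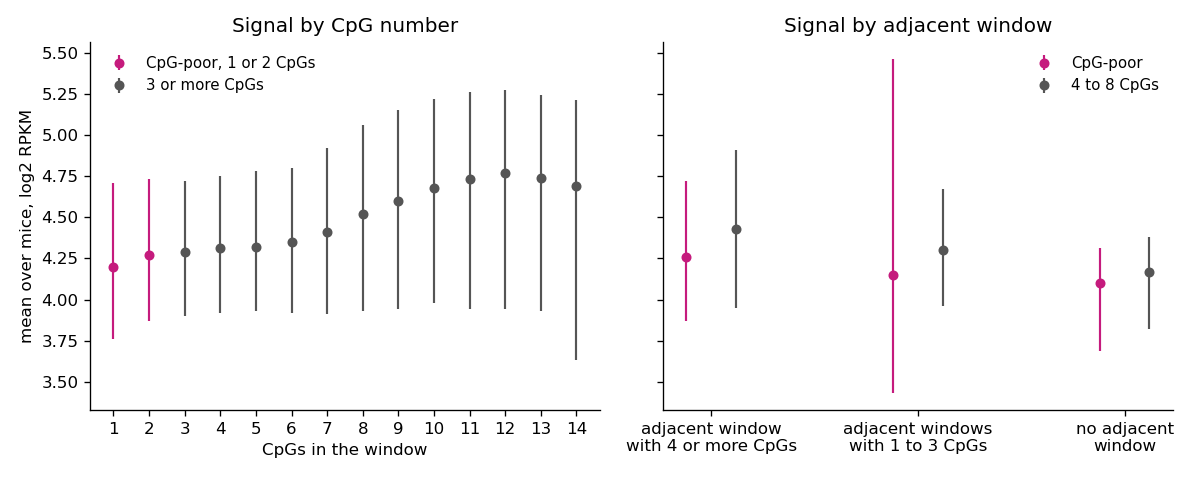
Mean log2 RPKM over 23 mice of autosomal windows, by the number of CpGs in the window (left) and by the adjacent window for CpG-poor windows and windows with 4 to 8 CpGs (right). Points are medians over windows and bars run from the 10th to the 90th percentile. The medians lie at 4.20 and 4.27 for 1 and 2 CpGs and at 4.77 for 12 CpGs.

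A few windows took most of the reads. The 268 CpG-poor windows with a mean above 120 reads per mouse (1.76% of them) held 61.6% of all reads in CpG-poor windows in the median mouse (53.2% to 70.2% over mice). Of the reads in CpG-poor windows, 45.7% lay in 82 windows of the first stretch of chromosome 9 (chr9:3000001-3037650), the start of its assembled sequence at the centromeric end. Whether reads of repeated DNA were placed at a single copy was not tested. Others were gathered on chromosome 14 near 19 Mb, on chromosome 2 near 98 Mb and on chromosome 12 near 3 Mb. The window with the highest signal, chr9:3002101-3002250 (2 CpGs), had 29789 to 56727 reads per mouse in B6 and 36922 to 52760 in D2. Its mean was 14.41 and that of the adjacent window with 4 CpGs was 14.05. The next 2 by signal also lay there, at chr9:3000151-3000300 (13.90) and chr9:3006601-3006750 (13.75). With windows above 120 reads left out, the share of autosomal reads in CpG-poor windows was 7.07% (5.92% to 7.99% over mice), against 11.9% with them.

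Among CpG-poor windows with no adjacent window in the matrix, signal was far lower even at the top. The 3 highest were at chr18:3005701-3005850 (mean 7.06), chr14:124801801-124801950 (mean 6.30, 1 CpG) and chr16:98107501-98107650 (mean 5.75, 2 CpGs), all intergenic. In the chromosome 14 window the reads ran from 71 to 281 in B6 mice and from 91 to 234 in D2 mice, so the strains overlapped. In D2 mice it ran from 6.51 to 7.11 in set 1 and from 5.24 to 6.31 in set 3, so the sets did not overlap. The chromosome 16 window ran from 5.94 to 6.40 and from 4.62 to 5.60, also without overlap. Without B6 control replicate 1, the highest of its group in both, the means were 6.24 and 5.70. The residual SDs of the 3 windows were 8.41, 5.06 and 3.48 times the counting SD, and the part of the sets and of that mouse in them was not tested.

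CpG-poor windows lay beside richer ones as a rule. An adjacent window with 4 or more CpGs was in the matrix for 13335 CpG-poor windows (87.6%), against 77.9% of windows with 4 to 8 CpGs. Another 992 (6.52%) had adjacent windows with 1 to 3 CpGs only, and 894 (5.87%) had no adjacent window. The medians of these 3 classes were 4.26, 4.15 and 4.10. With a richer window on both sides (3471 windows) the median was 4.50, and with a richer window on 1 side (9864 windows) it was 4.20. Windows with 4 to 8 CpGs were ordered in the same way, from 4.71 with richer windows on both sides to 4.17 with no adjacent window.

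The CpG-poor window was usually the lower of the pair. Its mean signal was below that of its richest adjacent window in 11013 of the 13335 pairs (82.6%), with a median difference of -0.29 on the log2 scale (10th and 90th percentiles -0.73 and 0.10). The median difference lay between -0.41 and -0.21 in every mouse. Windows with 4 to 8 CpGs were below their richest neighbor in 63.3% of pairs, with a median difference of -0.09. The deficit was larger beside richer neighbors, from -0.21 where the neighbor held 4 or 5 CpGs to -0.45 where it held 10 or 11. In the Sipa1l2 exon the order was the other way, with a mean of 4.94 in the window with 2 CpGs and 4.73 in the window with 7.

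CpG-poor windows had a value in the matrix far more often where the DNA around them held more CpGs. This was counted in exons and around gene starts, where the sequence of a window and of both its flanks was known. Of 192655 windows there with 1 or 2 CpGs, 975 (0.506%) had a value, against 11495 of 62909 (18.3%) with 4 to 8 CpGs. None of the 20471 CpG-poor windows whose flanking windows held no CpG had a value, which allows a share of up to 0.0147%. With 1 or 2 CpGs in the flanks 5 of 70855 did (0.00706%), with 7 or 8 it was 1.01%, with 11 or 12 it was 12.9%, and with 17 to 24 it was 24.8%. Windows with 4 to 8 CpGs started at 0.451% with no CpG in the flanks and reached 44.2% with 11 or 12, and their share was 25.6% with 17 to 24 and 4.89% with 25 to 60. Where neither flank held 4 CpGs, 0.0295% of CpG-poor windows had a value, against 2.32% where a flank did. The CpG-poor windows with a value had a median of 11 CpGs in their flanks (10th and 90th percentiles 7 and 15) and a GC content of 51.3%, against 56.0% in windows with 4 to 8 CpGs.

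**Figure D2:**
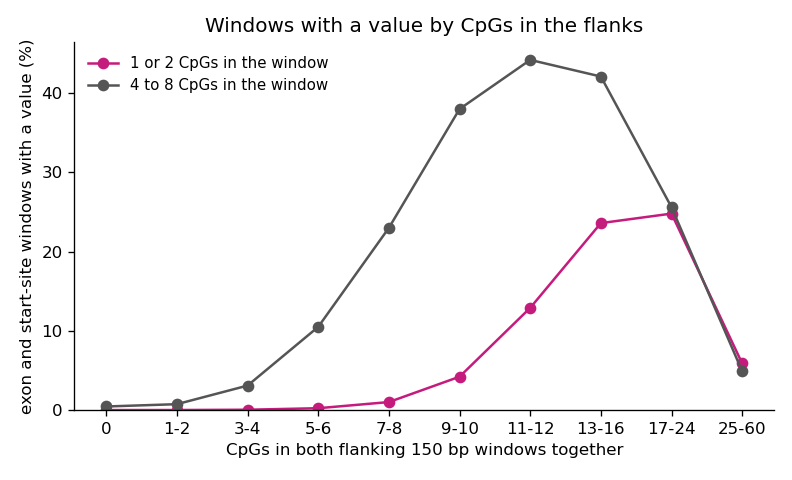
Share of 150 bp windows in exons and around gene starts that have a value in the matrix (in percent), by the number of CpGs in both flanking windows together, for windows with 1 or 2 and with 4 to 8 CpGs. The share with 1 or 2 CpGs goes from 0 with no CpG in the flanks to 24.8% with 17 to 24, and is 5.88% (1 of 17 windows) with 25 to 60.

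Deviations of a CpG-poor window followed those of the window beside it. After the mean of each group was removed, Pearson's r over the 23 mice between a CpG-poor window and an adjacent window with 4 or more CpGs had a median of 0.72 (16806 pairs). At a distance of 300 bp the median was 0.38, at 450 bp it was 0.12, and from 600 to 1500 bp it lay between 0.08 and 0.10. Pairs of windows with 4 to 8 CpGs gave 0.75, 0.37, 0.15 and 0.10 to 0.11. Adjacent pairs in which both windows were CpG-poor were few (473) and gave 0.85. For such pairs the median was 0.59 at 300 bp, 0.31 at 450 bp and between 0.26 and 0.39 from 600 to 1500 bp, so it did not fall to the level of the others. Fragments were sheared to about the length of a window and their reads extended to 150 bp, so 1 fragment can be counted in 2 adjacent windows, and all windows share the depth of their library. These values are a description and were not tested.

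**Figure D3:**
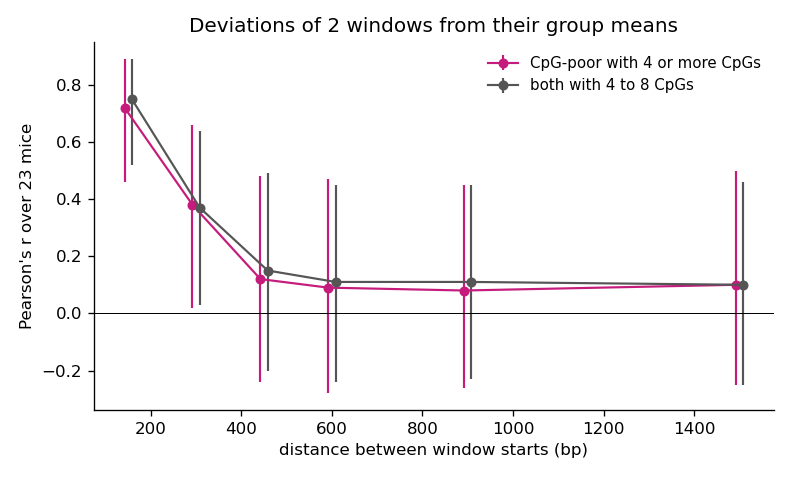
Pearson's r over 23 mice between the deviations of 2 windows from their group means, by the distance between the window starts in bp. Points are medians over pairs of windows and bars run from the 10th to the 90th percentile. Medians go from 0.72 at 150 bp to 0.12 at 450 bp for a CpG-poor window paired with a window of 4 or more CpGs.

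At the median window, the residual spread between mice was slightly larger in CpG-poor windows than in richer ones. The residual SD of the regression had a median of 0.265 on the log2 scale, where counting error gives 0.228, and the median of their ratio was 1.17. In windows with 4 to 8 CpGs the residual SD was 0.243, the counting SD 0.220 and the ratio 1.12. The ratios of the classes differed by 0.0523, and a like difference taken in each mouse had an SD of 0.0569 between mice. The residual SD passed 1.5 times the counting SD in 15.4% of CpG-poor windows and in 7.54% of the others. Among windows of like mean reads the classes lay closest between 20 and 60 reads (1.18 against 1.16 between 30 and 35 reads). Up to 20 reads the ratio was 1.28 against 1.15. Between 60 and 80 reads the ratio was 1.25 against 1.11, and between 80 and 120 reads it was 1.77 against 1.20. Among CpG-poor windows, those beside windows with 1 to 3 CpGs only had a ratio of 2.10, those with a richer neighbor 1.15 and those with no neighbor 1.20. The counting SD was taken at a window's mean over all mice, so it is too small where the strains differ widely. More CpG-poor windows differed between strains, as given below (29.3%, against 23.0% with 4 to 8 CpGs). The part of this in the ratios was not tested.

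The strains differed in how far CpG-poor windows fell below richer ones. In B6 mice the median of CpG-poor windows minus the median of windows with 4 to 8 CpGs was lowest at -0.32, -0.22 in the middle mouse and -0.10 at most. In D2 mice it ran from -0.09 to 0.05 with a middle value of -0.05, so every D2 mouse lay above every B6 mouse. Within set 1, the B6 mice had -0.30, -0.15 and -0.16 and the D2 mice 0.00, -0.04, 0.05, -0.09 and 0.00. The B6 mouse at -0.10 was control replicate 1, the mouse with the fewest reads, and the next was at -0.15. The medians of CpG-poor windows themselves had a mean of 4.23 in B6 and 4.37 in D2 mice, those of windows with 4 to 8 CpGs 4.45 and 4.40. The groups of a strain overlapped, with -0.26 to -0.10 in B6 control, -0.32 to -0.15 in B6 CORT + DFP, -0.09 to 0.05 in D2 control and -0.07 to 0.03 in D2 CORT + DFP mice.

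For CpG-poor windows with no adjacent window the median itself was compared, which is another measure. The median of those with no adjacent window had a mean of 4.11 ± 0.08 (SD, n = 11) in B6 mice and 4.13 ± 0.11 (SD, n = 12) in D2 mice. The ranges overlapped (4.00 to 4.24 and 3.94 to 4.28). Over autosomal windows, the regression slope of signal on the number of CpGs moved with strain as well. It lay between 0.029 and 0.081 per CpG in B6 mice and between -0.007 and 0.049 in D2 mice. Counts from a fit that holds this slope as a covariate are given with the strain differences.

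**Figure D4:**
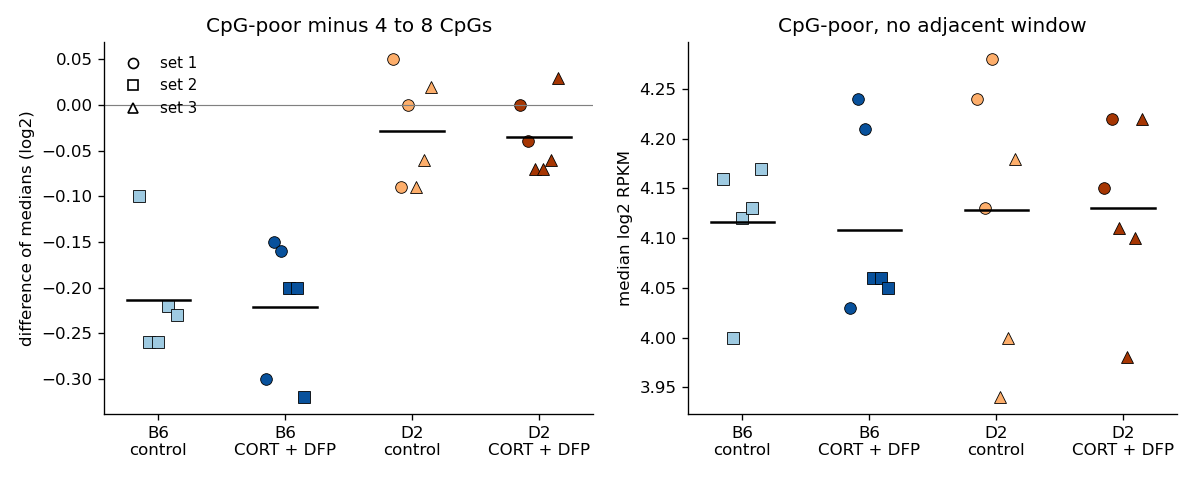
Left, median log2 RPKM of CpG-poor windows minus the median of windows with 4 to 8 CpGs in each mouse. Right, median log2 RPKM of CpG-poor windows with no adjacent window. Circles, squares and triangles are mice of sets 1, 2 and 3 and lines are group means. On the left D2 mice lie from -0.09 to 0.05 and B6 mice from -0.32 to -0.10, and on the right the strains overlap.

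D2 and B6 differed at many CpG-poor windows, more often with D2 higher. Each window was fitted by least squares over the 23 mice with strain, treatment, their interaction, sex and age. At a Benjamini-Hochberg adjusted p under 0.05 over all windows, 4454 CpG-poor windows (29.3%) differed between D2 and B6 control mice, beside 25.4% of all windows. No set held control mice of both strains. With the set in place of age 2227 were called, and 1041 in set 1 alone. The B6 mice of set 1 had all been treated, so its fit had treatment but no interaction and gives another contrast. In the fit with age and all mice, D2 was higher at 2880 (18.9%, beside 10.4% of all windows) and lower at 1574 (10.3%, beside 14.9%). In windows with 4 to 8 CpGs, 8.3% were higher and 14.7% lower. The median difference over all CpG-poor windows was 0.12 on the log2 scale, against -0.01 in windows with 4 to 8 CpGs. The called windows were 0.75 higher and 1.31 lower at the median. The D2 genome carries many sequence differences from the B6-derived reference to which all reads were aligned, so differences in methylation, in CpG content and in alignment cannot be told apart. Among control mice, neither can strain and set.

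The direction of the calls moved with the scaling of each mouse and with the set. Of the calls in CpG-poor windows 64.7% were higher in D2, against 36.0% in windows with 4 to 8 CpGs. With the slope on CpG number as a covariate the shares were 44.3% and 34.8%, and with each mouse centred within windows of the same CpG number they were 52.8% and 42.8%. Both scalings are made from this same signal and take out shifts shared by windows of a CpG number. A lower share in CpG-poor windows was therefore partly built into them, and the centring left a median difference of 0.005 there. With the set in place of age they were 55.3% and 26.4%. Among the 8 mice of set 1, by the fit without interaction, they were 49.0% and 20.8%. With quantile normalization they were 70.7% and 39.8%, and with each mouse centred on its autosomal median 68.4% and 41.4%. The share was the larger in CpG-poor windows in each of these fits. In the fit with the slope and in set 1, fewer of the called CpG-poor windows were higher in D2 than lower. The median difference over all CpG-poor windows was 0.01 and 0.155 in these 2 fits.

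**Figure D5:**
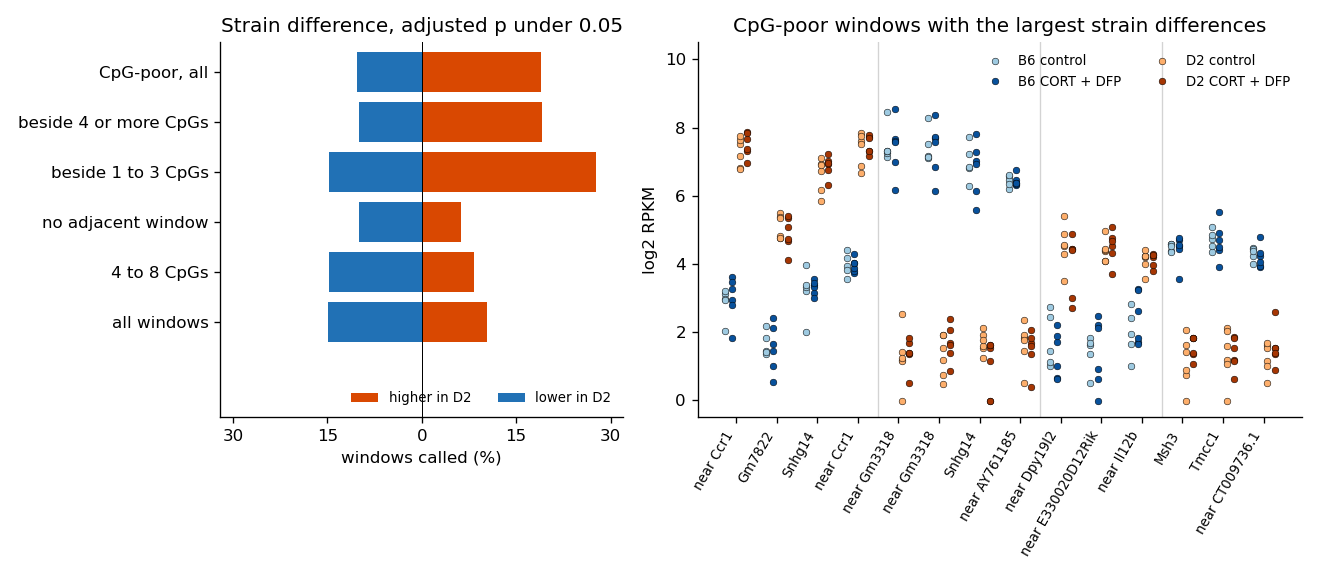
Left, share of windows (in percent) called higher or lower in D2 than in B6 control mice at an adjusted p under 0.05, for CpG-poor windows by their adjacent windows, windows with 4 to 8 CpGs and all windows. Right, log2 RPKM of each mouse at the CpG-poor windows with the largest differences, in 4 blocks (higher and lower in D2 beside a richer window, then higher and lower with no adjacent window). The strains stand apart at every window on the right except near Dpy19l2, where the lowest D2 mouse (2.71) lies just under the highest B6 mouse (2.72).

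Most called windows had a neighbor called in the same direction. CpG-poor windows with a richer neighbor were called at 2550 sites higher and 1339 sites lower in D2, those beside windows with 1 to 3 CpGs at 274 and 146 of 992 (42.3% in all), and those with no adjacent window at 56 and 89 of 894 (16.2%). Over all windows of these 3 classes, 45916 of 171228, 4066 of 16918 and 3309 of 22045 were called, the last close to the share in lone CpG-poor windows. Of the 2550 higher windows, the richest neighbor was called higher in 1966 (77.1%) and lower in 3. Of the 1339 lower windows, it was called lower in 1195 (89.2%) and higher in 1. Together 81.3% of the called windows had a neighbor called in the same direction. The median difference was 0.71 in the higher windows and 0.62 in their neighbors, and -1.22 and -1.29 in the lower windows and their neighbors. At 47 of the higher and 17 of the lower windows the neighbor differed by less than 0.1 with an unadjusted p above 0.05. In windows with 4 to 8 CpGs the same shares were 72.5% and 84.5%.

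Calls were unevenly spread over the genome's features. Of the CpG-poor windows 53.1% were intergenic, 24.8% in introns, 11.7% within 1 kb of a transcript start and 10.3% in other exons. They differed between strains at 33.7% of the intergenic, 28.1% of the intronic, 25.3% of the start-site and 13.6% of the exon windows. Over all autosomal windows the shares were 32.8%, 27.8%, 17.2% and 7.88%. Of CpG-poor windows with a mean of up to 30 reads 55.7% were called, and 21.3% of those above 30 and up to 40. Over all windows these shares were 64.9% and 18.3%. A mean of 3 reads or fewer was seen in D2 alone in 204 of the 15221 CpG-poor windows and in B6 alone in 19. Over all 210191 windows it was 4072 and 85. Such windows passed the authors' filter, more than 1 CPM in at least 2 libraries, only through the other strain. Of the 15221 CpG-poor windows, between 95 and 125 had no read in a given D2 mouse and 1 to 19 in a given B6 mouse. Of the 124957 windows with 4 to 8 CpGs, 1173 to 1578 and 2 to 19 had none. The classes differ in size, so these counts are not shares.

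The 4 largest differences with D2 higher and a richer neighbor lay at 3 places. An intergenic window with 1 CpG at chr9:123927901-123928050, 34074 bp from the chemokine receptor gene Ccr1, had 5 to 25 reads in B6 mice and 263 to 484 in D2 mice. On the log2 RPKM scale the B6 mice ran from 1.81 to 3.62 with a median of 2.97 and the D2 mice from 6.78 to 7.86 with a median of 7.44. The difference was 4.08 (SE 0.229, adjusted p = 1.76e-10), and 3.43 in the adjacent window with 7 CpGs. A second window near Ccr1 (chr9:123933151-123933300, 1 CpG) differed by 3.36 and its neighbor with 6 CpGs by 2.64. All D2 mice lay above all B6 mice at both.

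The Sipa1l2 window of the first sequence had 22 to 52 reads in B6 and 62 to 145 in D2 mice. Its log2 RPKM ran from 3.71 to 4.83 in B6 and from 5.18 to 5.75 in D2, without overlap, in a window picked for its small strain p. The difference was 1.02 (adjusted p = 5.08e-05), against 0.78 in the window with 7 CpGs.

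The Gm7822 window shown above had 1 to 6 reads in B6 and 41 to 115 in D2 mice. Its log2 RPKM ran from 0.52 to 2.40 in B6 and from 4.12 to 5.49 in D2, and differed by 3.47 (SE 0.339, adjusted p = 2.65e-07). The neighbor with 4 CpGs differed by 3.45. Another window of Snhg14 (chr7:59496901-59497050, 2 CpGs) had 7 to 23 reads in B6 and 133 to 346 in D2, a difference of 3.37, against 3.32 in its neighbor.

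The largest differences with D2 lower were larger still. At chr10:3113101-3113250 (2 CpGs, 4555 bp from the pseudogene Gm3318) B6 mice had 140 to 518 reads and D2 mice 0 to 7. The difference was -6.55 (SE 0.401, adjusted p = 5.7e-10), and -6.56 in the adjacent window with 4 CpGs. Without B6 control replicate 1 it was -6.35. At chr10:3116851-3117000 (1 CpG, 805 bp from Gm3318) B6 had 137 to 462 reads and D2 1 to 10, a difference of -6.43. With so few reads in D2, these values depend on the prior count of the log2 scale. In these windows and in those of Snhg14, the residual SD was 3.54 to 5.82 times the counting SD. That counting SD is set by the mean over both strains, so it is too small for the strain with few reads.

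The second Snhg14 window, the sequence with a single CpG shown above, went the other way from the first. B6 mice had 92 to 309 reads there and D2 mice 0 to 8, a difference of -5.27 (SE 0.431, adjusted p = 2.7e-08), and -5.63 in the neighbor. At chr8:20946001-20946150 (1 CpG, 1291 bp from the gene AY761185) B6 mice had 103 to 218 reads and D2 mice 1 to 6. That difference was -4.89, and -5.40 in the adjacent window with 9 CpGs.

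The named CpG-poor windows with no adjacent window were also picked for the largest differences. In each direction these were smaller than at the named windows beside a richer one. The Msh3 window had 19 to 58 reads in B6 and 0 to 8 in D2, with log2 RPKM of 3.54 to 4.76 and -0.03 to 2.06. Its difference was -3.38 (SE 0.265, adjusted p = 1.61e-08). In an exon of Tmcc1, a transmembrane protein gene (chr6:116022151-116022300, 2 CpGs), B6 mice had 28 to 63 reads and D2 mice 0 to 9, a difference of -3.22. An intergenic window at chr17:54504151-54504300 (1 CpG) differed by -3.18. The strains stood apart in all 3 windows, which were picked for their difference.

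The 3 named lone windows with D2 higher were intergenic. At chr1:153398401-153398550 (1 CpG) B6 mice had 0 to 8 reads and D2 mice 31 to 60, a difference of 2.72 (SE 0.37). At chr9:24541951-24542100 (2 CpGs, 14947 bp from Dpy19l2) the difference was 2.94 (SE 0.498) and the reads of B6 (1 to 8) and D2 mice (10 to 120) came close. At chr11:44420701-44420850 (1 CpG, 6668 bp from Il12b, which encodes an interleukin subunit) it was 2.18 (SE 0.361). With the set in place of age the last 2 differences were 1.90 (adjusted p = 0.106) and 1.77 (adjusted p = 0.0578). In the 8 mice of set 1 they were 1.32 (adjusted p = 0.371) and 1.42 (adjusted p = 0.218). Set 1 alone also lost the calls at chr1:153398401-153398550 (3.13, adjusted p = 0.0537), at the Gm7822 window (3.51, adjusted p = 0.0555) and at chr17:54504151-54504300, where the difference was over 1.5 times smaller than with all mice (adjusted p = 0.0517).

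Few CpG-poor windows passed the threshold used for treatment. In B6, 1 of the 15221 CpG-poor windows had a p of 0.0001 or less (0.00657%, beside 0.0109% of all windows), and in D2 2 had one (0.0131%, beside 0.0181%). For the treatment-by-strain interaction there was none, beside 0.0114% of all windows. No CpG-poor window passed an adjusted p of 0.05 for any of these 3 terms in the regression or with limma, and the smallest adjusted p in the regression were 0.569, 0.454 and 0.64. At an unadjusted p under 0.05 there were 902 in B6 (5.93%, beside 5.86% of all windows), 896 for the interaction (5.89%, beside 6.82%) and 622 in D2 (4.09%, beside 5.33%).

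The 902 windows in B6 leaned towards lower signal in CORT + DFP mice, with 255 higher and 647 lower, beside 5880 and 6434 of all windows. Their number was near the background. The size of the lean depended on the fit and on single mice, but lower windows outnumbered higher ones in every fit. Without B6 control replicate 1 there were 290 higher and 361 lower, and without B6 CORT + DFP replicate 6 there were 294 higher and 395 lower. With each mouse centred within windows of the same CpG number there were 434 higher and 463 lower, and with the slope on CpG number as a covariate 370 and 371. The centring and the slope take out shifts shared by windows of a CpG number. With no age in the model there were 297 and 377. The lean was larger than in these fits with limma, with quantile normalization and with the set in place of age. It was also larger in sets 2 and 3 alone and when any other single mouse was left out.

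The window with the smallest p in B6 was intergenic, at chr10:6081901-6082050 (1 CpG), 159501 bp from Rgs17. The B6 control mice had log2 RPKM of 4.13 to 4.62 and the B6 CORT + DFP mice 4.30 to 4.99, so the groups overlapped. Means were 4.36 ± 0.19 (SD, n = 5) and 4.68 ± 0.26 (SD, n = 6). The regression gave 0.52 (SE 0.094, Benjamini-Hochberg adjusted p = 0.569), and 0.20 in the adjacent window with 10 CpGs. D2 mice of both groups lay at 5.22 to 5.78, above all B6 mice. Without age in the model the effect was 0.31. The unadjusted p was above 0.0001 in 6 of 10 alternatives, that fit and limma among them, and when B6 control replicate 1 or 5 or B6 CORT + DFP replicate 4 or 5 was left out.

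The next 3 windows in B6 missed the threshold. At chr3:93929551-93929700 (2 CpGs, intergenic) the control mice had 3.44 to 3.73 and the CORT + DFP mice 3.81 to 4.29, without overlap, and the regression gave 0.52 (SE 0.109, adjusted p = 0.703). The adjacent window with 8 CpGs gave 0.62. In the Nrde2 window the control mice had 4.46 to 4.67 and the CORT + DFP mice 3.72 to 4.29, and the regression gave -0.48 (SE 0.106, adjusted p = 0.703), against -0.23 in the window with 11 CpGs beside it. In an exon of Hdac5, a histone deacetylase gene (chr11:102204601-102204750), it gave -0.58 (SE 0.131, adjusted p = 0.727), or -0.30 without age in the model, and the groups overlapped. There the means were 4.35 ± 0.25 (SD, n = 5) without treatment and 4.06 ± 0.35 (SD, n = 6) with it.

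In D2 both windows past the threshold were lower in CORT + DFP mice. An intergenic window at chr11:38486851-38487000 (1 CpG) had 4.64 to 4.90 in control and 4.01 to 4.54 in CORT + DFP mice, an effect of -0.44 (SE 0.080, adjusted p = 0.454). Its neighbor with 10 CpGs gave -0.37. In C130026I21Rik (chr1:85012801-85012950, 1 CpG, within 1 kb of a transcript start) D2 control mice had 5.32 to 5.47 and CORT + DFP mice 5.03 to 5.23, an effect of -0.29 (SE 0.055, adjusted p = 0.507), against -0.14 in the neighbor. The groups did not overlap at either. Both unadjusted p were above 0.0001 in 4 of 10 alternatives, which were limma, quantile normalization, voom weights and sets 2 and 3 alone. In sets 2 and 3 the effects were -0.28 and -0.26. At the first window the regression's p was also above 0.0001 when any of D2 control replicates 1, 2, 3 and 4 and D2 CORT + DFP replicates 1, 2 and 3 was left out. At the second it was so without any of D2 control replicates 1, 2, 4, 5 and 6 and D2 CORT + DFP replicates 1, 2, 4 and 6.

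The smallest interaction p was also that of the C130026I21Rik window (-0.44, SE 0.087), where the effect in B6 was 0.15 (SE 0.065). The chr10 window near Rgs17 came next (-0.58, SE 0.126). Then came a window in an exon of Smurf1, a ubiquitin ligase gene (chr5:144878851-144879000, 2 CpGs, 0.66, SE 0.146), and a window 3855 bp from Ssr1 (chr13:37962601-37962750, 2 CpGs, 0.89, SE 0.196). At both, D2 mice were higher and B6 mice lower after CORT + DFP in the regression, with 0.32 and -0.34 at Smurf1 and 0.38 and -0.51 near Ssr1. Without age in the model the interactions were 0.39 at Smurf1, 0.52 near Ssr1 and -0.32 near Rgs17. The adjusted p was 0.64 at each of these 4. In the 8 windows named for treatment or interaction, the residual SD was 0.561 to 0.858 times the counting SD.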

How the data were processed

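MBD-seq libraries of the prefrontal cortex of 23 mice were analysed. Per the study's methods, DNA was sheared, captured with an MBD2 protein and sequenced in pairs, reads were aligned with STAR 2.5.0a to GRCm38, and MEDIPS counted unique reads extended to 150 bp in 150 bp windows. The authors kept windows with CpGs, more than 1 read on average and more than 1 CPM in at least 2 libraries, and deposited log2 RPKM values normalized with edgeR 3.34.1 on a prior count of 2. HOMER annotation was not used here. No other per-sample column was in the matrix.

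Whole reads were recovered from the log2 values (all within 0.1 of a whole number) and gave 9776537 to 18428398 reads per mouse, which limits single windows to a median of 41 reads. Windows were annotated with GENCODE M21 (GRCm38), and its transcripts together with promoter sequences gave the sequences of windows. The listed CpG number equalled the CpGs counted in the sequence for 95.7881% of 28396 windows, and for 99.9965% when a C at the last base with its G in the next window was counted. No whole-genome sequence was used.

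Each of the 210191 windows was fitted by least squares with terms for strain, treatment and their interaction, and with sex and age as covariates (Python 3.11.15, numpy 2.4.6, scipy 1.17.1), with p-values two-sided and adjusted by Benjamini-Hochberg over all windows. Strain was called at an adjusted p under 0.05, and treatment and the interaction were counted at p of 0.0001 or less. The fit was tested on simulated reads. Alternatives were limma 3.58.1 (R 4.3.3), voom weights, log2(RPKM + 1), other centring, quantile normalization, set in place of age, no age, single sets, a CpG slope covariate and leaving out each mouse. The limit to windows with up to 120 reads and the centring within a CpG number were added after seeing the data.

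Named windows were those with the highest signal, the largest called strain differences in each direction, both with a richer neighbor and with none, and the smallest treatment and interaction p. The members, lists and tests were chosen with earlier results of these data known. Intervals and limits cover counting error only.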

Additional observations from a re-analysis of the deposited data

Results flagged for a closer look

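Within the 4 groups, a single mouse lay far from the others of its group, by Dixon's 95% critical value, in 9 of 124 sets of values tested (31 measures), where chance gives about 1 in 20, or 6.2.

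B6 control replicate 1, the female with the fewest reads, was the highest mouse of its group in 4 of these. Its median of CpG-poor windows minus that of windows with 4 to 8 CpGs was -0.10 against -0.26 to -0.22 in the others, and its gap to the nearest mouse was 0.769 of the group's range. The log2 RPKM at chr14:124801801-124801950 was 7.63 against 5.64 to 5.93 (0.855 of the range). It was 6.94 against 5.19 to 5.64 at chr16:98107501-98107650 (0.741) and 8.44 against 7.13 to 7.31 at chr10:3113101-3113250 (0.86).

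B6 CORT + DFP replicate 6 was the highest of its group at chr9:3000151-3000300, with 14.34 against 13.79 to 13.98 (0.662), and at chr8:20946001-20946150, with 6.76 against 6.30 to 6.46 (0.658). B6 control replicate 3 was the lowest at chr9:123927901-123928050, with 2.02 against 2.94 to 3.20 (0.776). D2 CORT + DFP replicate 6 was the lowest at chr10:3113101-3113250, with 0.49 against 1.36 to 1.81 (0.656). B6 CORT + DFP replicate 4 was the lowest at the Msh3 window, with 3.54 against 4.42 to 4.76 (0.722).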

How the results depend on the processing

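Each mouse was in a single condition, so there were no pairs to analyse. No named window's effect changed sign, while the strain calls leaned to the other side in 2 of the fits below (the slope covariate and set 1 alone). Of the named windows' tested values under other settings, 212 kept their side of the threshold, 21 lost it and 7 gained it. Strain calls in CpG-poor windows (4454) fell to 2227 (1232 higher and 995 lower in D2) with the set in place of age. In set 1 alone, which holds 8 mice and no B6 control, the fit without interaction gave 1041 (510 and 531). With the CpG slope as covariate 1553 were higher. Leaving out each mouse gave 3918 to 4483 calls, 2406 to 2954 higher and 1435 to 1594 lower. The B6 treatment count (1) was 5 with quantile normalization and 0 with the set or voom weights, and 0 to 4 without single mice. The D2 count (2) was 0 with limma, quantile normalization, voom weights and sets 2 and 3 alone, and 0 to 4 without single mice. The interaction count (0) was 1 with limma, autosomal centring, quantile normalization, the set, no age and voom weights, 2 with the slope or the centring within a CpG number, and 0 to 3 without single mice. The median deficit against the richer neighbor was -0.296 to -0.287 without single mice and -0.355 for windows with 1 CpG. Agreement with the neighbor was 78.7% to 81.6% without single mice, 83.4% for windows with 1 CpG, and 79.6% with a neighbor of 6 or more CpGs and with limma. Depth limits single windows, as the counting SD (0.228) nears the residual SD (0.265).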
